A study of Homo sapiens with 16 samples.

Results

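The histone gene cluster on the short arm of chromosome 6 was examined in Hi-C data from K562, an established human leukaemia cell line. Hi-C ligates DNA ends that were near each other in fixed nuclei and counts the ligated pairs, here called contacts. Cells were fixed with 2% formaldehyde, and chromatin was cut in nuclei with the restriction enzyme HindIII for 0.25, 1, 3 or 12 h. Each of the 4 times had 2 replicate libraries, and each of the 8 libraries was sequenced in 2 runs. All groups shared the cell line, the fixation and the enzyme and differed in the length of digestion. No group went undigested. The series asked which domain boundaries were most accessible at the shortest digestion.

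The members were the 24 bins of 20 kb, of 151825 in all, that cover 3 subclusters of histone genes in build hg19. The first subcluster spans chr6:26000001-26300000 (15 bins), the second chr6:27080001-27140000 (3 bins) and the third chr6:27760001-27880000 (6 bins). They were set against the other 111 bins of the window chr6:25500001-28200000, of which 109 were present in all 8 files. The subclusters were chosen by their contacts among each other, and a stretch at chr6:26700001-26800000 by its coverage, both in these same libraries. The levels of those quantities are therefore given as a description with no test. The labels do not say whether replicates came from separate cultures, so every p-value measures only the spread between these libraries. Contact data hold no expression markers, so the cell line was taken from the labels.

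Histones are the proteins around which DNA is wound. The replication-dependent histone genes are transcribed in S phase, when new chromatin must be packaged, and their messages end in a stem-loop in place of a poly(A) tail. The cluster on 6p22 is the largest group of these genes, and active histone genes gather at a nuclear compartment known as the histone locus body, where factors for their transcription and 3' end processing are concentrated.

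The RefSeq table of assembly GRCh38.p14 listed 55 protein-coding histone genes on this chromosome arm by their older HIST1 names. In order along the chromosome they formed 3 runs, preceded by a separate pair of genes, HIST1H2AA and HIST1H2BA. The first run held 32 genes, from HIST1H1A, a linker histone gene, past HIST1H4A, a core histone H4 gene, to HIST1H4H. The run contained 5 genes for H1, 4 for H2A, 8 for H2B, 7 for H3 and 8 for H4. The second run held 5 genes, from HIST1H2BJ, a core histone H2B gene, to HIST1H2AH, with no H1 or H3 gene among them. The third run held 16 genes, from HIST1H2BL to HIST1H2BO, and its 1 linker histone gene was HIST1H1B. The only other protein-coding gene inside a run was HFE, the gene of hereditary haemochromatosis, in the first. Between the first and the second run stood 47 tRNA genes and 9 protein-coding genes, among them 6 butyrophilin (BTN) genes counted by symbol, ABT1 and ZNF322. Between the second and the third run stood 51 tRNA genes and 5 protein-coding genes, among them PRSS16, ZNF391 and ZNF184. These positions are an order only, because the annotation and the contact data are on different builds, so no gene is placed in a single bin.

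The 150 bases before the start of 1 gene from each run are shown because the runs share promoter elements, and 3 of the 4 member genes were matched in the RefSeq promoter table (GRCh38.p14). HIST1H4A is named only. All 3 genes lie on the minus strand, at chr6:26017788-26017937, chr6:27132796-27132945 and chr6:27867589-27867738 of GRCh38.p14, which are not positions of hg19. Capitals mark matches on either strand to 3 motifs. The first was TATAAA, the box that positions the start of transcription. The second was CCAAT, an element found in many promoters of genes tied to the cell cycle. The third was AAACACA, an element known from linker histone promoters. The letters AAGCTT, the site of HindIII, were searched as well and had no match in these windows.
HIST1H1A: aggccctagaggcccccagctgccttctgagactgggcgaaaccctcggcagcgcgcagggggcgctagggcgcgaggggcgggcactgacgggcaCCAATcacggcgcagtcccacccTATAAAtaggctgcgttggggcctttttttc
HIST1H2BJ: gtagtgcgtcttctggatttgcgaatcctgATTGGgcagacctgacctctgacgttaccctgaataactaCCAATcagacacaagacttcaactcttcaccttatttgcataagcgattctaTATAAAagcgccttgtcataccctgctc
HIST1H1B: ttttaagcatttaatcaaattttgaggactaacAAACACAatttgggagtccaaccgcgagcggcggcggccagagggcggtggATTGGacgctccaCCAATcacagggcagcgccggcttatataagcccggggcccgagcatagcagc
On the gene's strand, CCAAT began 54 bases before the start of HIST1H1A, 80 before that of HIST1H2BJ and 53 before that of HIST1H1B. A further match on the opposite strand began 120 bases before the start of HIST1H2BJ and 66 before that of HIST1H1B. Among the 48 histone genes of the runs with a promoter in the table, 85.4% held CCAAT within 150 bases, against 24.4% of all 27305 promoters. TATAAA was held by 52.1% of the 48 and by 7.05% of all. AAACACA was held by 5 of 6 linker histone promoters and by 0 of 42 core histone promoters, against 2.77% of all. The 4 motifs do not overlap each other in these 3 windows. A match is a description of the letters and not a sign of binding.

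The subclusters had more contacts with each other than pairs of bins on chromosome 6 had on average at the same distance. The ratio of observed to expected contacts was computed from the deposited balanced signal, in which each bin's total is made equal. The pair of the first and the second subcluster had ratios of 1.89 and 1.97 after 0.25 h, 1.91 and 2.09 after 1 h, 1.86 and 2.00 after 3 h and 2.07 and 2.06 after 12 h (replicate 1 and replicate 2). Every library was above the expectation of 1 for this pair, and the values after 12 h lay above both after 0.25 h. The pair of the first and the third had ratios of 1.70 and 2.03 after 0.25 h, 1.92 and 1.98 after 1 h, 1.65 and 1.84 after 3 h and 2.03 and 1.93 after 12 h. The 0.25 h and 12 h libraries overlapped for that pair. The pair of the second and the third had the highest ratios, with 3.43 and 2.99 after 0.25 h, 3.32 and 3.42 after 1 h, 3.16 and 3.26 after 3 h and 3.08 and 3.10 after 12 h. Again the 0.25 h and 12 h libraries overlapped. Over the 8 libraries the means were 1.98 ± 0.0893, 1.89 ± 0.144 and 3.22 ± 0.162 (SD, n = 8). These ratios rested on 148 to 437, 152 to 365 and 186 to 521 contacts per library.

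**Figure D1:**
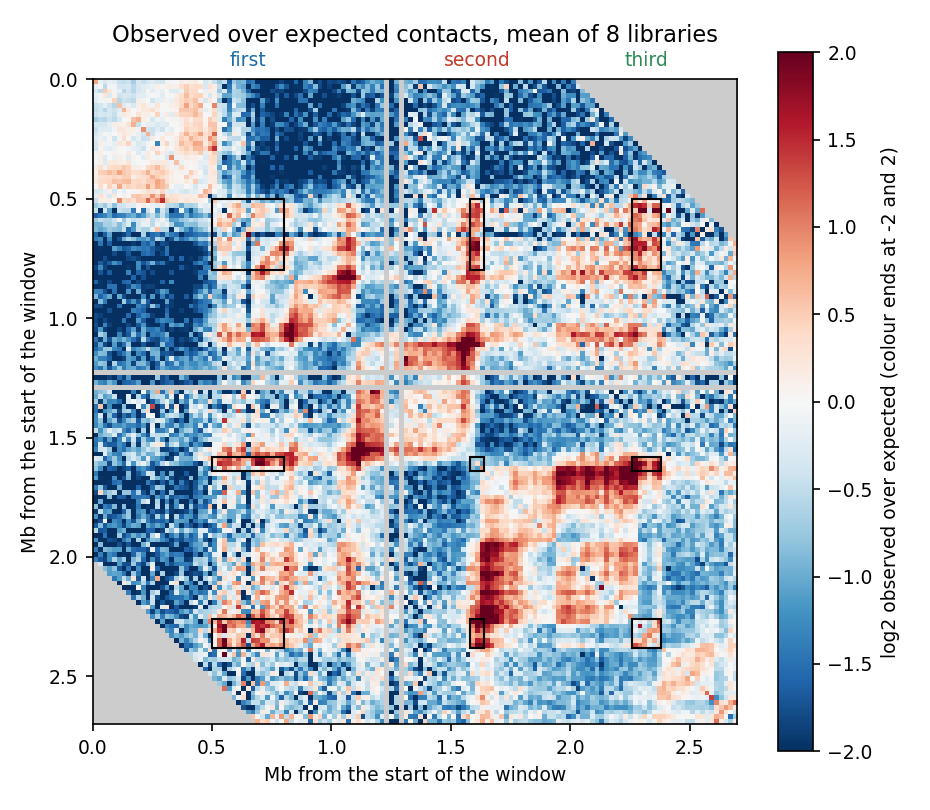
Mean observed over expected contacts of 8 libraries (log2, colour) for each pair of 20 kb bins, with both axes in Mb from the start of the window and the blocks of subclusters outlined. Grey marks absent bins and pairs over 2 Mb apart. The blocks between subclusters are red, as are columns beside them.

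On average the other bins of the window did not show this level, although single bins beside the subclusters did. At separations of 0.5 to 2 Mb, all subcluster pairs together had a mean ratio of 2.22 ± 0.0817 (SD, n = 8), pairs of a subcluster bin with another bin of the window 0.925 ± 0.0220 and pairs of other bins 0.666 ± 0.0223. The lowest library of the first kind, at 2.07, was above the highest of the second, at 0.949. The difference between these kinds on the log2 scale, called the subcluster preference, was 1.21 to 1.37 over the 8 libraries. Within a subcluster the ratio was lower, with means of 0.977 in the first, 0.546 in the second and 1.13 in the third. The second subcluster, with 3 bins, thus had fewer contacts among its own bins than chromosome 6 on average at the same distance. Without balancing, the whole contacts gave higher ratios between subclusters, with means of 2.42, 2.383 and 5.65 in the same order, the last more than 1.5 times the balanced value.

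The same shape of 3 blocks was set at every position of chromosomes 1 to 22 and X, which gives the genome's own range for these ratios. Of 127563 positions, 3.99% reached the level of the first and the second subcluster, and 8.12% of 128821 reached that of the first and the third. For the second and the third it was 0.332% of 118822. The middle position had ratios of 0.9004, 0.849 and 0.956. The second and the third subcluster therefore stood further out in this ranking than the other pairs, as a description of blocks that were chosen for their contacts.

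**Figure D2:**
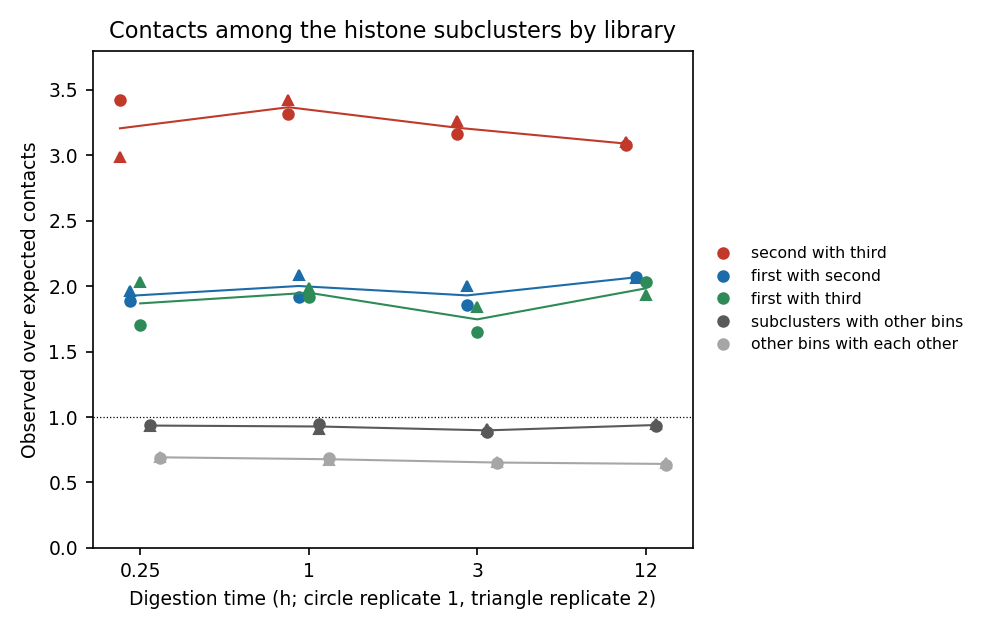
Ratio of observed to expected contacts (vertical axis) by digestion time (horizontal axis) for the 3 pairs of subclusters, for subclusters with other bins and for other bins with each other. Points are libraries and lines join the means of 2, and the pair of the second and the third lies between 2.99 and 3.43.

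Across digestion times these contacts, which the choice of members used at each time, are given without a test. From 12 h to 0.25 h the ratio of the first and the second subcluster differed by -0.10 on the log2 scale (SE 0.109). For the first and the third the difference was -0.09 (SE 0.130), and for the second and the third 0.05 (SE 0.127). Spearman's rho of the ratio with log2 hours was 0.39, 0.15 and -0.39 over the 8 libraries, which share their time in pairs. For the second and the third, rho was -0.97 without 0.25 h replicate 2. That library was the shallowest, with 62777251 contacts against 78895077 to 176412222 in the others. The subcluster preference had a rho of 0.29.

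Single pairs of bins showed where the contacts between subclusters were densest. Of the 153 bin pairs between subclusters, 102 held at least 20 contacts over the 8 libraries and were ranked. That minimum uses the same contacts as the ratio, and these contacts chose the cluster, so the ranking is a description. The highest joined chr6:27120001-27140000, at the end of the second subcluster, with chr6:27760001-27780000, at the start of the third, with a ratio of 7.05 ± 1.16 (SD, n = 8) from 394 contacts. The next 3 all joined chr6:27100001-27120000 of the second with bins of the third. They were chr6:27760001-27780000 at 5.54 ± 1.21, chr6:27860001-27880000 at 4.52 ± 0.575 and chr6:27780001-27800000 at 4.50 ± 0.713. The fifth joined chr6:26180001-26200000 of the first subcluster with the same bin of the second, at 4.37 ± 1.35 from 135 contacts.

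Along the window, 23 of the 24 subcluster bins had a mean ratio above 1 with the subcluster bins at 0.5 to 2 Mb, and so did 39 of the 109 other bins. The medians were 2.09 and 0.808. The highest bin was chr6:27760001-27780000, at 3.39 ± 0.193 (SD, n = 8), with values from 3.19 to 3.71. In the first subcluster the highest was chr6:26200001-26220000, at 2.94 ± 0.363, and in the second chr6:27100001-27120000, at 2.92 ± 0.273. The 1 subcluster bin below 1 was chr6:26140001-26160000, at 0.769 ± 0.545, which held only 27 contacts of this kind. High ratios did not stop at the edges of the subclusters. The bin chr6:26320001-26340000, just after the first, had 2.28 ± 0.189, and chr6:27740001-27760000, just before the third, had 2.49 ± 0.424. A separate rise lay between the first and the second subcluster, where chr6:26560001-26580000 had 2.03 ± 0.346 and chr6:26580001-26600000 had 1.92 ± 0.131 from 1198 contacts. All 25 bins before the first subcluster were below 1, with a highest value of 0.917.

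**Figure D3:**
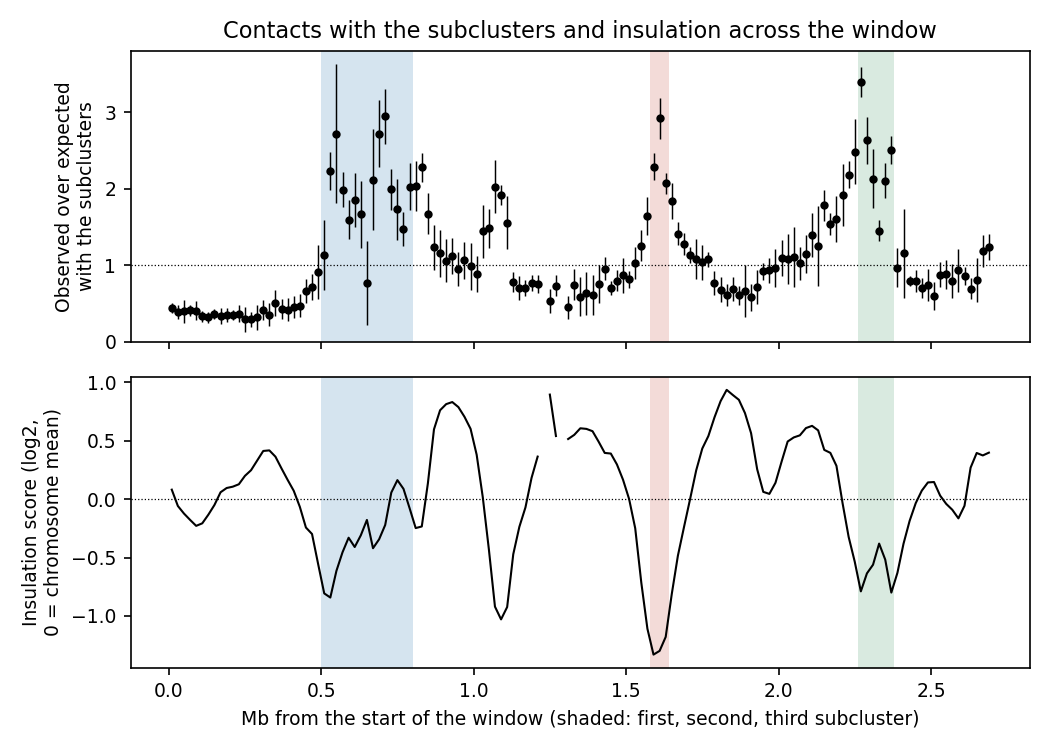
Upper panel, mean observed over expected contacts of each 20 kb bin with the subclusters (SD over 8 libraries as bars) against Mb from the start of the window. Lower panel, mean insulation score, with gaps at bins that had no score in some library and with its lowest value, -1.33, at the second subcluster.

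On average, contacts across the subcluster bins were sparser than across the other bins of the window. The insulation score is the log2 of the mean signal between the 200 kb on either side of a bin, less the chromosome's mean, so that a low score marks a boundary. Its mean was -0.51 in the subcluster bins (range of libraries -0.59 to -0.45) and 0.15 in the other bins of the window (0.13 to 0.17), with no overlap of libraries. The second subcluster was the lowest, at -1.27, followed by the third at -0.61 and the first at -0.31. All scored bins of the second and the third were below the chromosome's mean, while 3 bins of the first were above it, with 0.16 the highest, at chr6:26240001-26260000. Local minima numbered 309 on chromosome 6 and 9 in the window, where 24 of 133 bins present in all files were subcluster bins. Of the 9 local minima, 4 were inside a subcluster and 1 adjoined one. They were at chr6:26020001-26040000 (-0.84), chr6:26300001-26320000 (-0.25), chr6:27080001-27100000 (-1.33), chr6:27760001-27780000 (-0.79) and chr6:27860001-27880000 (-0.80). The minimum at the start of the second subcluster was deeper than all but 0.198% of the scored bins of the genome. A further deep minimum, at chr6:26580001-26600000 (-1.03), coincided with the bins between the first and the second subcluster that had high contacts with the subclusters.

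The test of boundaries between digestion times called almost no bin in the genome, so it says little about the subclusters. For 0.25 h against 12 h, 0 of 24 subcluster bins and 0 of 106 other bins of the window outside the stretch were called (limma), where 0.00226% of 132537 bins were called genome-wide. At an unadjusted p under 0.05, 1 of the 24 and 9 of the 106 passed, against 8.04% of all bins. At the start of the second subcluster the score changed by 0.03 (95% interval -0.16 to 0.23, limma adjusted p = 0.945).

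The coverage of a bin, counted as its contacts with other bins scaled to a common library total (CPM), varied widely among histone bins. In the first subcluster the mean per bin was 17.7 and 18.8 CPM after 0.25 h, 17.7 and 18.4 after 1 h, 17.9 and 18.5 after 3 h and 16.97 and 17.2 after 12 h. In the second it was 23.7 and 25.98 after 0.25 h, 24.2 and 25.45 after 1 h, 25.2 and 26.2 after 3 h and 23.8 and 24.1 after 12 h. There the 0.25 h libraries overlapped those of 12 h, while the libraries of 1 h and 3 h lay above them. In the third it was 25.1 and 26.88 after 0.25 h, 24.9 and 25.6 after 1 h, 25.1 and 25.3 after 3 h and 22.8 and 23.4 after 12 h. The 12 h libraries were thus the lowest in the first and the third. Over all bins the mean was 14.6 in every library, a value set by the scaling, and over chromosome 6 it was 18.4 to 19.1.

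For 0.25 h against 12 h, 16 of 24 subcluster bins were called for coverage, where 55.9% of 137197 bins were called genome-wide. Of these, 10 were higher and 6 lower after 0.25 h, and genome-wide 20.9% of bins were called higher and 35% lower. Of the 106 other bins of the window outside the stretch, 64 were called, 48 higher and 16 lower. Genome-wide, 37.3% of the calls were higher, and with median-of-ratios scaling 50.8% were. With that scaling the subclusters had 18 calls, 15 higher and 3 lower, where 55.7% of all bins were called. The median log2 change was 0.08 in the subclusters, 0.09 in the other bins outside the stretch and -0.04 over all bins. The comparison of the subclusters' share with that of all bins turned with the contacts counted. It was 66.7% against 55.9% as above and 50% against 67.8%, from 12 of 24 bins, when contacts inside the bin were included. Without 0.25 h replicate 2 the number of called subcluster bins fell to 10, where 52.4% of all bins were called. With contacts to other chromosomes only it was 0 (limma), where 6.36% of all bins were called. Contacts within the chromosome alone gave 14, where 55.8% were called. After 1 h, 12 of the 24 bins were called against 12 h (8 higher, 4 lower), where 47.1% of all bins were called, 18.2% higher and 28.9% lower. After 3 h it was 11 (10 higher, 1 lower), where 38.6% were called, 14.4% higher and 24.3% lower.

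In the first subcluster, 5 bins were called higher and 5 lower, while in the third 4 of 6 were called higher and none lower. The share called was 66.7% in each, against 55.9% of all bins, with 20.9% higher and 35% lower. Calls mostly higher were not particular to the third. Between the second and the third, 18 of 31 were called higher and 2 lower, and before the first 13 and 1 of 25. After the third subcluster it was 6 and 6 of 16. The part between the first and the second holds the stretch, so its calls are not counted here. With median-of-ratios scaling 7 rose and 2 fell in the first, and 6 of 6 rose in the third, where 50.8% of all calls were higher. The largest rise was at chr6:26020001-26040000, in the first subcluster, with a coverage of 31.9 and 37.9 CPM after 0.25 h, 31.7 and 35.4 after 1 h, 31.3 and 33.1 after 3 h and 26.27 and 26.4 after 12 h. All 6 shorter digestions were above both 12 h libraries, and the log2 change from 12 h to 0.25 h was 0.39 (SE 0.0560, limma adjusted p = 4.02e-06). At chr6:27860001-27880000, in the third, coverage was 29.3 and 31.8 after 0.25 h and 24.9 ± 0.921 after 12 h (SD, n = 2), a log2 change of 0.29 (SE 0.0421, limma adjusted p = 4.56e-06). At chr6:26200001-26220000 it was 16.6 and 19.1 against 13.98 and 15.1, a change of 0.28 (limma adjusted p = 0.000242). The last change was 0.18 without 0.25 h replicate 2. Bins outside the stretch were named for coverage, here and below, only if they were called and their 0.25 h and 12 h libraries did not overlap. Neither trait of a named bin is therefore added support.

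The 3 largest falls lay in bins of the first subcluster with coverage below the mean of all bins. At chr6:26120001-26140000 coverage was 5.22 and 5.72 CPM after 0.25 h and 6.58 and 6.45 after 12 h, a log2 change of -0.23 (SE 0.0653, limma adjusted p = 0.00404). At chr6:26040001-26060000 it was 3.55 and 2.88 against 3.65 and 3.96, a change of -0.22 (limma adjusted p = 0.0363). At chr6:26140001-26160000 it was 2.57 and 2.44 against 3.01 and 2.96, a change of -0.21 (limma adjusted p = 0.0283). Both of the last calls were lost without 0.25 h replicate 2, where the changes were -0.09 and -0.18 with adjusted p-values of 0.43 and 0.108 (limma), and with median-of-ratios scaling, with 0.0899 and 0.0786 (limma). The call at chr6:26040001-26060000 was likewise lost when 12 h replicate 2 was left out (limma adjusted p = 0.246), and that at chr6:26140001-26160000 without either 12 h library (limma adjusted p = 0.13 and 0.102). Without 0.25 h replicate 1 the change at chr6:26040001-26060000 was -0.35. The libraries of these bins did not overlap between 0.25 h and 12 h, which the naming rule required.

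**Figure D4:**
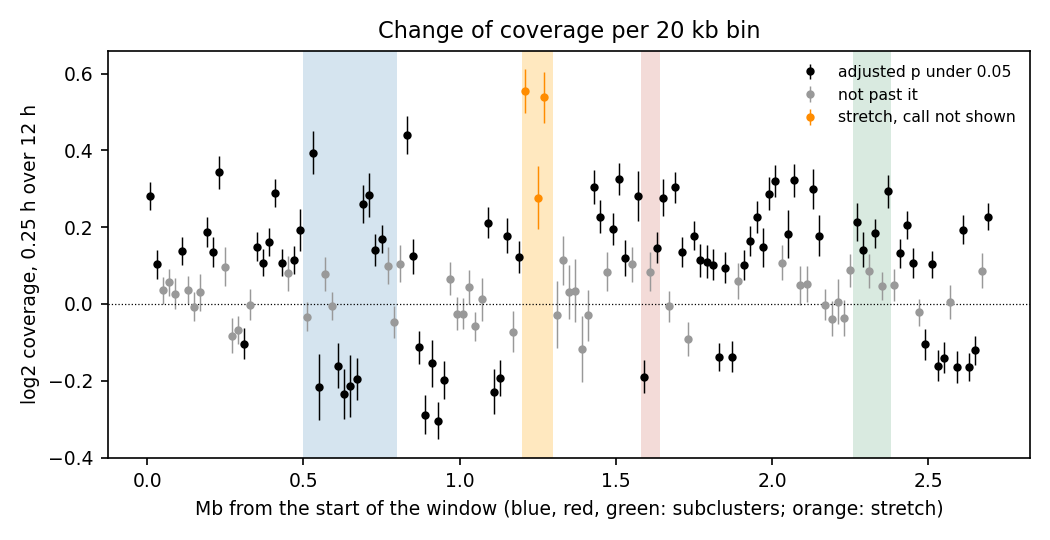
Log2 change of coverage from 12 h to 0.25 h (vertical axis, SE as bars) of each 20 kb bin against Mb from the start of the window, with subclusters and the stretch shaded. Black points passed an adjusted p of 0.05 and grey ones did not, and the orange points of the stretch are shown without a call. The highest subcluster bin lies at 0.39.

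The stretch at chr6:26700001-26800000, between the first and the second subcluster, was chosen for its change with digestion, so its changes are given as a description, without p-values or calls. Of its 5 bins, chr6:26780001-26800000 was absent from all files and chr6:26720001-26740000 from both 12 h files, which left 3. Their mean coverage was 10.7 and 12.8 CPM after 0.25 h, 10.9 and 10.96 after 1 h, 10.7 and 10.6 after 3 h and 8.15 and 8.09 after 12 h. The 12 h libraries were the lowest. The bins chr6:26700001-26720000 and chr6:26760001-26780000 had log2 changes of 0.55 and 0.54 from 12 h to 0.25 h, and chr6:26740001-26760000 had 0.28. In the 100 kb before the stretch the changes ran from -0.23 to 0.18, and in the 100 kb after it from -0.12 to 0.11. The share of contacts inside a bin was 10.3% and 15.1% after 0.25 h and 2.56% and 1.99% after 12 h in the stretch. Its contacts with the first, the second and the third subcluster had mean ratios of 0.630, 0.975 and 0.774, below those among the subclusters in every library.

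Among the other bins of the window outside the stretch, chr6:26320001-26340000, just after the first subcluster, rose most. Its coverage was 30.5 and 35.8 CPM after 0.25 h, 29.7 and 30.0 after 1 h, 30.5 and 30.4 after 3 h and 23.7 and 24.8 after 12 h, a log2 change of 0.44 (SE 0.0492, limma adjusted p = 2.17e-07). The largest falls were at chr6:26420001-26440000, with 10.6 and 10.7 after 0.25 h and 13.3 and 13.2 after 12 h, and at chr6:26380001-26400000, with 9.36 and 9.42 against 11.3 and 11.9. Their log2 changes were -0.30 (limma adjusted p = 1.61e-05) and -0.29 (limma adjusted p = 4.88e-05). At chr6:26600001-26620000 the change was -0.23 (limma adjusted p = 0.00238).

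Contacts inside a bin made up more of the total at short digestion, in the subclusters as in the genome. In the subclusters they were 16.1% and 19.5% after 0.25 h, 14.7% and 14.5% after 1 h, 13.9% and 13.8% after 3 h and 8.38% and 8.34% after 12 h. Over all bins they were 11.3% and 13.8% after 0.25 h and 6.198% and 6.10% after 12 h. In the other bins of the window they were 6.6004% to 15.08%, with a mean over libraries of 10.7% against 13.7% in the subclusters and 9.78% over all bins. The bins after the third subcluster had a mean of 12.5%, above the 11.7% of the first subcluster, so values above the whole were not limited to the subclusters. The ratio of inside to other contacts was called higher after 0.25 h in 19 of 24 subcluster bins and lower in 0, where 64.9% of all bins were called, and 64.7% higher (limma). Of the 106 other bins of the window outside the stretch, 78 were called, all higher. The share was larger than in the subclusters before the first, with 22 of 25, and after the third, with 14 of 16. It was smaller between the second and the third, with 19 of 31. Calls between the first and the second are not counted here, because that part holds the stretch. All 6 bins of the third subcluster were called, 2 of 3 in the second and 11 of 15 in the first. After 1 h, 18 of the 24 were called higher against 12 h, where 61.8% of all bins were called and 61.7% higher. After 3 h it was 20, where 56.9% were called and 56.8% higher. The median log2 change was 0.98 in the subclusters, 0.88 in the other bins outside the stretch and 0.82 over all bins.

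A bin of the first subcluster, chr6:26140001-26160000, had the largest such change among the subcluster bins, and it is named after its values were seen. Inside contacts were 29.5% and 46.0% of its total after 0.25 h, 23.1% and 22.7% after 1 h, 19.4% and 20.2% after 3 h and 2.49% and 2.90% after 12 h. All shorter digestions were far above the 12 h libraries, with 12 inside contacts in each 12 h library and 98 and 99 after 0.25 h. The log2 change of the ratio was 4.38 (SE 0.265, limma adjusted p = 3.15e-05). When contacts inside the bin were counted, its coverage change was 0.19 (limma adjusted p = 0.0569) in place of -0.21. Among the subcluster bins, chr6:26180001-26200000 followed with 2.114 and chr6:27780001-27800000 of the third subcluster with 1.52. Other bins of the window had changes of up to 3.76, at chr6:27620001-27640000.

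The balance between contacts with other chromosomes and contacts within chromosome 6 was not called for any subcluster bin or any other bin of the window. Contacts with other chromosomes were 13.7% and 14.5% of the subclusters' contacts outside the bin after 0.25 h and 16.1% in both 12 h libraries. In the other bins of the window they were 13.1% and 13.7% against 15.05% and 15.4%, and over all bins 12.1% and 12.96% against 13.4% and 13.6%. The 12 h libraries were the highest in each set. At an unadjusted p under 0.05, 8 of 24 subcluster bins and 28 of 106 other bins outside the stretch passed, against 12.7% of all bins, while 0.00146% of all bins were called (limma). The median log2 change was -0.20 in the subclusters, -0.20 in the other bins outside the stretch and -0.06 over all bins. The preference for the chromosomes 19, 17 and 22, which are rich in genes, over 13, 18 and 4, which are poor in genes, was 0.41 to 0.92 (log2, relative to chromosome 6) in the subclusters and 0.67 to 0.79 in the other bins, and the ranges overlapped.

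Histone genes also lie on chromosome 1, and contacts between the chromosomes were counted at chr1:149740001-149880000 (HIST2) and chr1:228600001-228660000 (HIST3). These intervals were set by hand on hg19 and were not checked against an annotation of that build. The 24 subcluster bins had 7 and 7 contacts with HIST2 after 0.25 h, 5 and 1 after 1 h, 9 and 6 after 3 h and 6 and 3 after 12 h. Against the number expected from the trans totals of both sides, the ratio was 36.6 and 60.1 after 0.25 h, 24.6 and 6.42 after 1 h, 34.1 and 28.5 after 3 h and 16.6 and 8.70 after 12 h. The other bins of the window had ratios of 3.87 to 8.50, and the subclusters were above them in 8 of 8 libraries. The 1 h replicate 2 value rested on 1 contact.

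**Figure D5:**
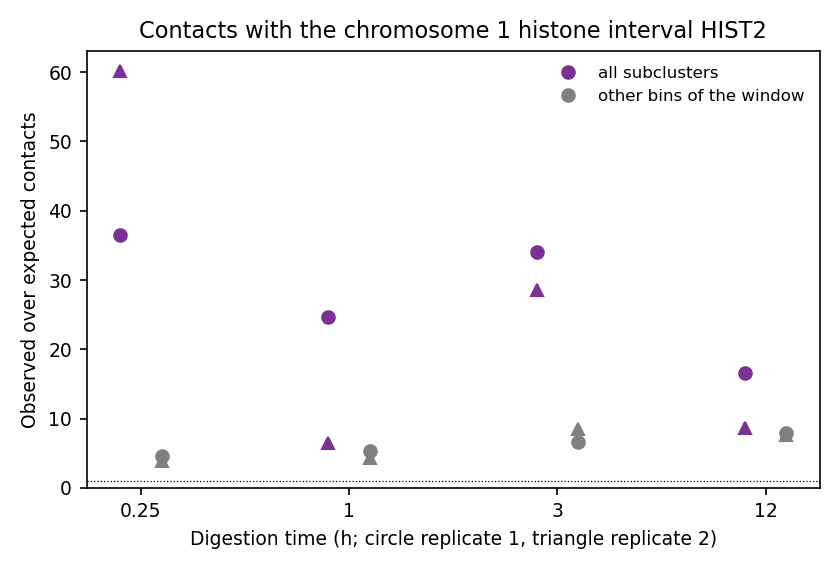
Ratio of observed to expected contacts with the HIST2 interval of chromosome 1 (vertical axis) by digestion time (horizontal axis) for the 24 subcluster bins and the other bins of the window. Points are libraries, and the subclusters range from 6.42 to 60.1.

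Summed over libraries, 44 contacts joined the subclusters with HIST2, 23.8 times the expected number (95% exact Poisson interval 17.3 to 32.0, counting error only). For the other bins of the window it was 55 contacts and a ratio of 6.56 (4.94 to 8.54). The ratio was 22.3 for the first subcluster, 32.5 for the second and 22.8 for the third, from 24, 8 and 12 contacts. The 44 contacts were spread over 38 of 168 bin pairs, with at most 3 in a pair. In the 100 kb before HIST2 the ratio of the subclusters was 3.74 (1.37 to 8.14), and in the 100 kb after it was 7.45 (4.34 to 11.9). The other bins of the window had 2.34 (1.36 to 3.74) before it and 4.54 (3.34 to 6.04) after it, and the intervals overlapped those of the subclusters. Contacts of the subclusters with HIST2 had a rho of -0.59 with log2 hours (exact permutation p = 0.153, two-sided, adjusted p = 0.722 over the 6 trends computed) and an r of -0.65 (exact p = 0.073). Its r was -0.48 without the 12 h libraries and -0.17 without those of 0.25 h. With each library left out in turn, rho ran from -0.86 to -0.39. The value of -0.86 came without 1 h replicate 2, the library with 1 contact. HIST3 had 7 contacts in all with the subclusters, too few for a comparison, and 4 of the libraries had none. Histone coding sequences are nearly identical between copies, and how reads that match several copies were placed is not given in the sources used here, so its part in these contacts was not tested.

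Far along chromosome 6, the subclusters had their highest ratios with 100 kb intervals on both sides of the window. The 232 intervals ranked had at least 100 contacts with the subclusters themselves. An interval with few expected contacts could thus enter only where its ratio was high, and the ranking is a description. The highest were chr6:43900001-44000000 at 4.03 ± 1.18 (SD, n = 8), chr6:2900001-3000000 at 3.89 ± 1.501, chr6:2800001-2900000 at 3.83 ± 1.33, chr6:3000001-3100000 at 3.77 ± 1.28 and chr6:6900001-7000000 at 3.71 ± 1.54. The spread between libraries was wide, from 1.83 to 6.67 in the last of these. With the same intervals, in the same order, the other bins of the window had mean ratios of 1.62, 2.15, 2.18, 2.00 and 1.31. Ratios above 1 at these places were thus not limited to the subclusters. In coverage over the 8 libraries, the bins outside the window most like the mean of the subclusters were chr6:24980001-25000000 (Pearson's r = 0.98), chr6:3420001-3440000 (0.97) and chr6:163760001-163780000 (0.96), and 0.696% of 8185 bins of chromosome 6 were above 0.9. These correlations share libraries and depth and are a description.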

How the data were processed

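Reads were processed by the authors, and HiC-Pro 2.11.1, Bowtie2 2.3.4.1 and build hg19 are named without roles per the submitters' processing notes. The deposited files hold a balanced contact signal per pair of bins (50 kb in the first run, 20 kb in the second), scaled by the authors so that all bins of a file have the same total. The second run, with 62777251 to 176412222 contacts per library, was used throughout, and the first, with 8918994 to 20237350, only as an alternative. In the second run both 12 h libraries, with 176412222 and 153465906 contacts, were deeper than every library of a shorter digestion, at 62777251 to 145441737. In comparisons with 12 h, depth and digestion time therefore cannot be told apart. Each signal was divided into whole contacts and bin factors, and all values came within 0.01 of a whole number. Poisson intervals cover counting error only, since contacts amplified by PCR are not independent molecules.

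Bins with under 100 contacts on average were not tested. Coverage was tested as log2 of CPM plus 0.5, which understates the change of low bins, and ratios with 0.5 added to each side, with limma 3.58.1 (lmFit, eBayes with trend) in R 4.3.3 on all 8 libraries and Benjamini-Hochberg adjustment over all bins, at 0.05. In simulated libraries for coverage at 0.25 h against 12 h, 88 of 100 bins changed by 0.3 (log2) and 100 of 100 changed by 0.6 were recovered, with 7 false calls among 137197 bins. The simulation drew Poisson counts with small independent noise and left all other bins unchanged. In the real libraries 55.9% of bins were called and replicates of a number deviated together, so it does not give the error rate of the real calls. Trends of contacts with chromosome 1 used exact permutation tests over the 8 libraries. A position of the 3-block shape counted where 80% of its bins were present and every library had at least 5 contacts. Insulation used squares of 10 bins.

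Replicates of the same number deviated together: the difference between replicates in coverage correlated by 0.112 to 0.258 in all 6 pairs of times, so the replicate number was also fitted as a block. The labels do not say what a number marks.

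The members and the lists were chosen with earlier results of these data known. Named were the subclusters, their pairs and the stretch, then the 3 highest and 3 lowest called bins without overlap of libraries inside and outside the subclusters, the 5 highest bin pairs and distant intervals and the 3 most alike bins. Alternatives were other scalings, filters, kinds of contact and expectations, the first run, the replicate block and each library left out.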

Additional observations from a re-analysis of the deposited data

How the results depend on the processing

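With the replicate number as a block, 75% of the subcluster bins were called for coverage, against 66.7% without it, while the share of all bins went from 55.9% to 60.5%. For the inside ratio it was 83.3% against 79.2%, and over all bins 65.9% against 64.9%. The named bins outside the stretch kept their calls under the block, and the trend of contacts with HIST2 had an exact p-value of 0.17. Leaving out each library in turn gave 41.7% to 83.3% of subcluster bins called for coverage, against 40.3% to 55.8% of all bins. It moved the log2 change from 12 h to 0.25 h from -0.22 to 0.036 for the first and the third subcluster and from -0.048 to 0.15 for the second and the third. The rank correlation with log2 hours ran from -0.24 to 0.40 for the first and the third, from -0.97 to -0.20 for the second and the third, from -0.86 to -0.39 for HIST2 and from -0.14 to 0.35 for HIST3. It ran from 0.26 to 0.64 for the first and the second and from 0 to 0.50 for the subcluster preference. With contacts to other chromosomes only, 0% of subcluster bins and 6.36% of all bins were called. In the first run, 27.3% were called, against 27.0% of all its 50 kb bins, the log2 changes of the subcluster pairs were 0.13, 0.38 and -0.17, rho was -0.24 for the first and the third and -0.049 for the preference, and the mean ratios were 1.70 for the first and the third and 2.55 for the second and the third, with a preference of 1.21. Without balancing, the mean ratios were 2.42, 2.383 and 5.65 and the preference 1.55, and the first and the third had a log2 change of 0.15 and a rho of -0.39. The coverage change of chr6:26140001-26160000 was 0.19 when contacts inside the bin were included. The cause of these differences was not tested. Apart from the libraries left out, 60 other values under an alternative stayed on the same side of their threshold and in the same direction. Against these 60, 9 values moved and 7 reversed. The first run held 20 to 70 contacts per pair of subclusters and library, which limits what it can show.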
